A study of Mus musculus with 2 samples.

Results

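Chromatin-modifying enzymes were compared between 2 cultures of CD4 T cells. The 46 genes are listed enzymes that write or erase DNA methylation, histone methylation and histone acetylation, together with direct partners such as Uhrf1, Eed and Suz12. They were taken by name from a fixed list, and their probes were found through the RefSeq accession printed for each probe. Of the 46 genes, 44 had a named probe, out of 18434 genes named on the array, and 43 were well above background on both arrays. Tet1 and Hdac1 had no probe named through this match and were not analysed here. Hdac9 had 2 probes, and neither was well above background on either array. Of the listed genes, 7 act on DNA methylation, 17 on histone methylation, 9 on histone demethylation and 13 on histone acetylation.

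The cells were splenic CD4 T cells of wild type C57BL/6 mice, an inbred laboratory strain, sorted magnetically to over 98% purity and cultured for 5 days in all. They were stimulated through the T cell receptor and CD28 for 2 days and kept for 3 more days. Both cultures received TGF-beta at the same dose (3 ng/ml). Th9 cells were grown with 10 ng/ml of IL-4 and with 1 µg/ml of an anti-IFN-gamma antibody, and Th9+IFNgamma cells with 3 ng/ml of IL-4 and 10 ng/ml of IFN-gamma itself. The effects of IFN-gamma, of the antibody and of the IL-4 dose cannot be told apart. By its title the study concerned Th1 cell development under IL-4 and TGF-beta. There was 1 single-colour array per culture, which leaves every value without a replicate, and no test between the cultures was possible. The labels do not say how many mice stood behind a culture.

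DNA methyltransferases add methyl groups to cytosines that stand before guanines (CpG sites). Dnmt1 copies existing marks after replication with the help of Uhrf1, Dnmt3a and Dnmt3b place new marks, and Tet enzymes oxidise the mark as a step towards its removal. Histone methyltransferases and demethylases set lysine marks that accompany silent genes (H3K9 and H3K27) or active genes (H3K4 and H3K36), while acetyltransferases and deacetylases raise or lower histone acetylation. In helper T cells such enzymes are known for keeping the cytokine genes of other lineages silent, as Ezh2 and Dnmt1 do.

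Signal was well above background for 60.6% of 41174 probes in Th9+IFNgamma and for 59.9% in Th9, without any saturated spot. Both arrays lay on 1 slide and were read in 1 scan. All 7 CD4 T cell marker genes were detected in both cultures, with Cd4 at a scaled signal of 502 in Th9+IFNgamma and 444 in Th9. The 6 B cell markers summed to 938 in Th9+IFNgamma and 1464 in Th9, and 6 myeloid markers to 99.8 and 260. Among them Cd22 was at 8.41 and 148, detected on the Th9 array alone, and Adgre1 at 25.8 and 186, a 7.19-fold lower signal in Th9+IFNgamma. Most of the B cell sum was Cd79b, at 844 and 1187. The other myeloid markers measured on both arrays did not follow Adgre1, with Csf1r at 34.1 and 34.3 and Cd14 at 26.4 and 21.3. The haemoglobin gene Hba-a1 was 2.24-fold higher, at 120 and 53.4. Pax5, Lyz2, Itgam, Itgax, Ncr1 and Alas2 stayed at background level on the 2 arrays by the software's flag. Of 4 NK cell markers, which summed to 2636 and 221, most of the sum in Th9+IFNgamma was Eomes (2486 against 88.3), a factor that Th1 cells also express. Cd8a was at 1338 and 1074. The part of these cells in the results was not tested.

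A scaled signal is the processed spot brightness multiplied by a factor per array that makes the 75th percentiles of the arrays equal. It compares a gene between arrays, not different genes. A log2 difference is Th9+IFNgamma minus Th9, and folds divide the larger by the smaller signal. The error given with a difference (± in log2 units) is the one the extraction software attached to the 2 spots, and it covers no variation between cultures. Over the measured members it ran from 0.204 to 0.286 and stayed near the lower value except for dim genes. It thus acts as a nearly fixed limit rather than an uncertainty measured for each gene. In whole cultures, fewer cells of a type and less RNA per cell cannot be told apart.

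Most chromatin enzymes had similar signals in the cultures. Of the 43 measured, 39 lay within 2-fold, while 1 was higher and 3 were lower in Th9+IFNgamma by 2-fold or more. The higher gene was Smyd3, and the lower ones were Hdac4, Hdac11 and Kdm2b. Among the 12272 named genes with a signal on each array, 5.15% passed this limit upwards and 7.42% downwards, so 1 and 3 of 43 (2.33% and 6.98%) were not above the shares of the array as a whole. No member was detected on 1 array alone. The median log2 difference was 0.07 for the members and -0.01 for all genes, and the median absolute difference was 0.21 for the members and 0.33 for all genes. Dim genes were a larger part of all genes: a scaled signal of at least 100 on both arrays kept 9494 of 12272 genes and 40 of 43 members. With that filter 1 member was higher and 2 were lower by 2-fold, against 429 and 465 of all genes. The part of signal level in the smaller differences of the members was not tested. A smaller 1.5-fold limit added only Dnmt1, which gave 2 members higher and 3 lower, where all genes had 12.6% higher and 15.5% lower. The difference was larger than the software's own error in 22 members, 16 of them higher (37.2%) and 6 lower (14.0%) in Th9+IFNgamma, where all genes had 31.5% higher and 33.2% lower by this measure.

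**Figure D1:**
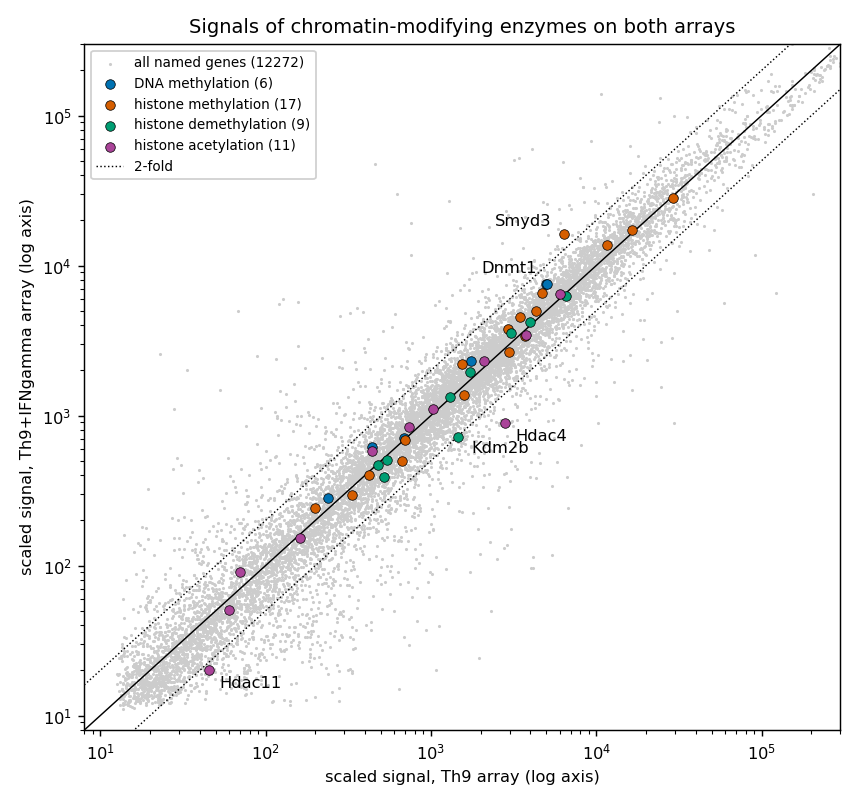
Scaled signal of each gene on the Th9 array (horizontal, log axis) against the Th9+IFNgamma array (vertical, log axis), with 12272 named genes in grey and the 43 measured chromatin enzymes coloured by class. The solid line marks equal signals and the dotted lines 2-fold; Smyd3 lies above the upper dotted line, and Hdac4, Hdac11 and Kdm2b lie below the lower one.

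The DNA methylation genes were higher in Th9+IFNgamma, each by less than 2-fold. All 6 measured genes had a positive difference, except that Tet3 turned negative with normexp, with its probes averaged and by its probe with the smallest difference. Their median was 0.44, where 49.6% of all genes were positive. Dnmt1, the maintenance methyltransferase, had a scaled signal of 7587 in Th9+IFNgamma and 4980 in Th9. It was thus 1.52-fold higher, with a log2 difference of 0.61 ± 0.20, and 12.0% of all genes were at least as far apart in that direction. Uhrf1, which binds hemimethylated DNA and brings Dnmt1 to it, was at 7485 against 5050, a difference of 0.57 ± 0.20. Its second probe gave 3175 against 2246, so both probes gave the same order.

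Among the de novo methyltransferases, Dnmt3b was at 614 in Th9+IFNgamma and 441 in Th9 (0.48 ± 0.20). Dnmt3a was at 2295 and 1743 (0.40 ± 0.20), and its other 2 probes gave differences of 0.64 and 0.31, all in the same direction. The Tet enzymes were closer to equal. Tet2, a tumour suppressor of blood cells, had signals of 283 and 237 (0.25 ± 0.21), and Tet3 had 709 and 685 (0.05 ± 0.20). The 3 probes of Tet3 differed in sign (0.05, -0.02 and -0.08), each by less than its error. Writers of DNA methylation were thus 1.32-fold to 1.52-fold higher, Tet2 was 1.19-fold higher and Tet3 had no settled direction.

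Genes of dividing cells were also higher in Th9+IFNgamma. Of 24 measured proliferation markers, 24 were higher (22 in the alternative setting with the fewest), where 49.6% of all genes were positive. Their median was 0.82, and 6 (25%) passed 2-fold upwards, against 5.15% of all genes. Over the settings 5 to 9 passed it. Bub1 passed it by its brightest probe (1.00) but was at -0.05 by its other probe. The summed signal of the markers was 565514 in Th9+IFNgamma against 357178 in Th9. Pcna, the clamp of replication forks to which Dnmt1 binds, was at 59901 against 41796 (1.43-fold), Mki67 at 44926 against 25736 (1.75-fold) and Top2a at 8611 against 3713 (2.32-fold). The part of proliferation in the differences of Dnmt1, Uhrf1 and the other enzymes was not tested.

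**Figure D2:**
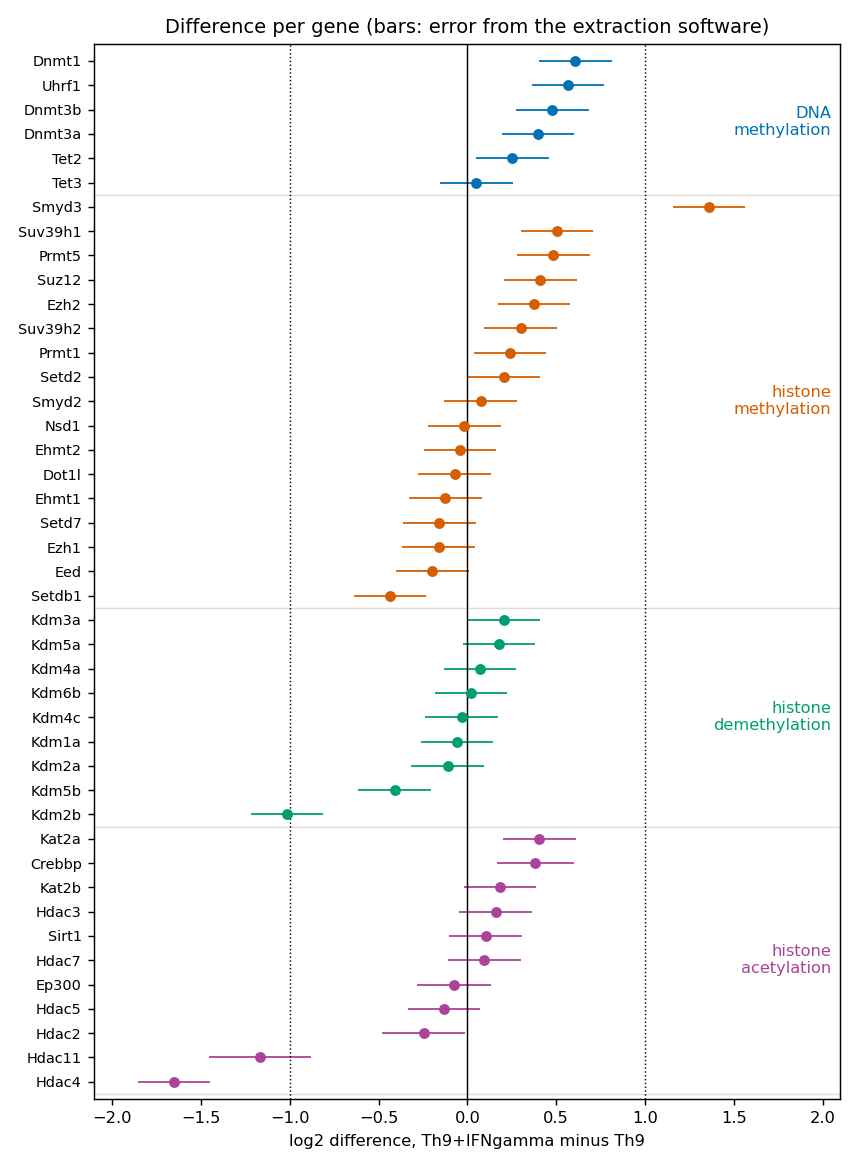
Log2 difference (Th9+IFNgamma minus Th9) of the 43 measured enzymes by class, sorted within each class; bars show the error of the extraction software and dotted lines 2-fold. All 6 DNA methylation genes lie to the right of 0 (Tet3 turns negative with normexp, with its probes averaged and by its probe with the smallest difference), while the other classes lie on both sides.

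The histone methylation genes, Eed and Suz12 included, had no common direction, with 9 of 17 positive, 8 negative and a median of 0.07. Smyd3 was the exception in size. This enzyme of the SET and MYND domain family methylates lysines of histones and of other proteins. It had a scaled signal of 16306 in Th9+IFNgamma and 6351 in Th9, a 2.57-fold difference (1.36 ± 0.20 in log2). Its other probes gave 987 against 353 and 170 against 76.0, so that every one of its 3 probes read 2.24-fold or more. Of all genes, 2.79% were at least as far apart in that direction. Its relative Smyd2 was nearly equal, at 17206 against 16349 (0.07 ± 0.20).

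The genes of Polycomb repressive complex 2, which places H3K27 methylation, were split. Ezh2, its main catalytic subunit in dividing cells, was at 3784 in Th9+IFNgamma and 2920 in Th9 (0.37 ± 0.20), and Suz12, a scaffold subunit, at 4573 and 3440 (0.41 ± 0.20). Both probes of Suz12 were higher in Th9+IFNgamma. Ezh1, the alternative catalytic subunit, was at 297 and 333 (-0.16 ± 0.20), and Eed, which reads the mark, at 1380 and 1583 (-0.20 ± 0.20). Neither of these differences was larger than its error.

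The H3K9 methyltransferases also went both ways. Suv39h1, which marks constitutive heterochromatin, had signals of 2191 and 1546 (0.50 ± 0.20). Suv39h2, its relative, had 244 and 198 by its brightest probe (0.30 ± 0.21) and 46.0 and 38.8 by another. The third probe of Suv39h2, close to background, was lower in Th9+IFNgamma, at 14.6 against 22.2. Setdb1, which is recruited by zinc finger repressors, was the lowest histone methyltransferase, at 498 against 673 (-0.44 ± 0.20), or 1.35-fold lower in Th9+IFNgamma. With normexp background correction its difference was -0.21. Ehmt1 (3396 against 3699) and Ehmt2 (28133 against 28959), which act together as the enzyme pair GLP and G9a, differed by -0.12 and -0.04, less than their errors.

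The remaining lysine methyltransferases were close to equal. Setd2, the enzyme for H3K36 trimethylation, was at 5010 and 4342 (0.21 ± 0.20), and Nsd1, which also methylates H3K36, at 691 and 699 (-0.02 ± 0.20). Dot1l, the H3K79 methyltransferase, was at 404 and 425 (-0.07 ± 0.20), and its 3 probes ranged from -0.21 to 0.003. Setd7 was at 2646 and 2953 (-0.16 ± 0.20), with -0.17 by its next probe. Of the arginine methyltransferases, Prmt5, which places symmetric dimethylation, was 1.40-fold higher at 6540 against 4678 (0.48 ± 0.20), and Prmt1, the main asymmetric enzyme, was at 13727 against 11633 (0.24 ± 0.20).

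Among the histone demethylases, Kdm2b and Kdm5b were lower in Th9+IFNgamma and the other 7 lay within 1.15-fold. Their median log2 difference was -0.03, with 4 of 9 genes positive. Kdm2b demethylates H3K36 and carries a CxxC domain that binds unmethylated CpG sites, where it recruits a variant Polycomb complex. Its brightest probe had a scaled signal of 725 in Th9+IFNgamma and 1465 in Th9, which is 2.02-fold lower (-1.01 ± 0.20). A second probe gave 193 against 410 (-1.08 ± 0.21), and the remaining one, at 24.3 against 25.3, gave -0.06 ± 0.33. The gene therefore passed the 2-fold limit by 2 probes and was equal by 1 dim probe. The mean over the 3 probes was -0.72, and the difference of the brightest probe was -0.90 with median scaling and -0.87 with normexp, so the 2-fold call was lost in each of these settings.

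RefSeq lists 4 promoter windows for Kdm2b, in groups up to 88749 bases apart. The 250 bases before the start are shown for the window of each group with the most CpG, the site that the CxxC domain binds, in capitals. The other windows hold 12 CpG (chr5:122988508-122988757) and 36 (chr5:122900368-122900617, which overlaps the window shown). The sequences are from RefSeq on GRCm38.p6, minus strand, 5′ to 3′. The first lies at chr5:122989100-122989349 and holds 27 CpG, and the second at chr5:122900351-122900600 holds 38.
Kdm2b upstream start: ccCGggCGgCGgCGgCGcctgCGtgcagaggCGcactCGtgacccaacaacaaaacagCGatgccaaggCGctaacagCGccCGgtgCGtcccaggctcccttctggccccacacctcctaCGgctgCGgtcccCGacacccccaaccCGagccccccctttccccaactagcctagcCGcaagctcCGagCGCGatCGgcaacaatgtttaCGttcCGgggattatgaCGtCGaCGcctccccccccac
Kdm2b downstream start: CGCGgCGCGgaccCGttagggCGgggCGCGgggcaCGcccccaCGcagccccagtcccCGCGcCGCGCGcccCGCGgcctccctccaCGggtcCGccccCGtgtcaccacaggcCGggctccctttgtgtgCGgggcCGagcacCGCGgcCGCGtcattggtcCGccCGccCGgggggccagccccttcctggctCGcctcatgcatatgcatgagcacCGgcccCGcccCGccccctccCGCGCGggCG
Which of these starts each probe reads was not tested.

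Kdm5b, which removes H3K4 methylation, was at 389 in Th9+IFNgamma and 517 in Th9 (-0.41 ± 0.20), which is 1.33-fold lower, and its second probe gave -0.21. Kdm5a, its relative, was at 1957 and 1730 (0.18 ± 0.20). Kdm6b, the H3K27 demethylase known for its role with T-bet in Th1 cells, was nearest to equal in this class, at 1320 and 1302 (0.02 ± 0.20). Kdm1a, the first lysine demethylase to be described, was at 6277 and 6534 (-0.06 ± 0.20). The H3K9 demethylases Kdm3a (3529 and 3060, 0.21 ± 0.20), Kdm4a (4191 and 3989) and Kdm4c (470 and 481) and the H3K36 demethylase Kdm2a (502 and 542) differed by -0.11 to 0.21. The signs of Kdm1a, Kdm2a and Kdm4c turned with median scaling, and Kdm6b turned with quantile normalization and with a percentile over detected probes.

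**Figure D3:**
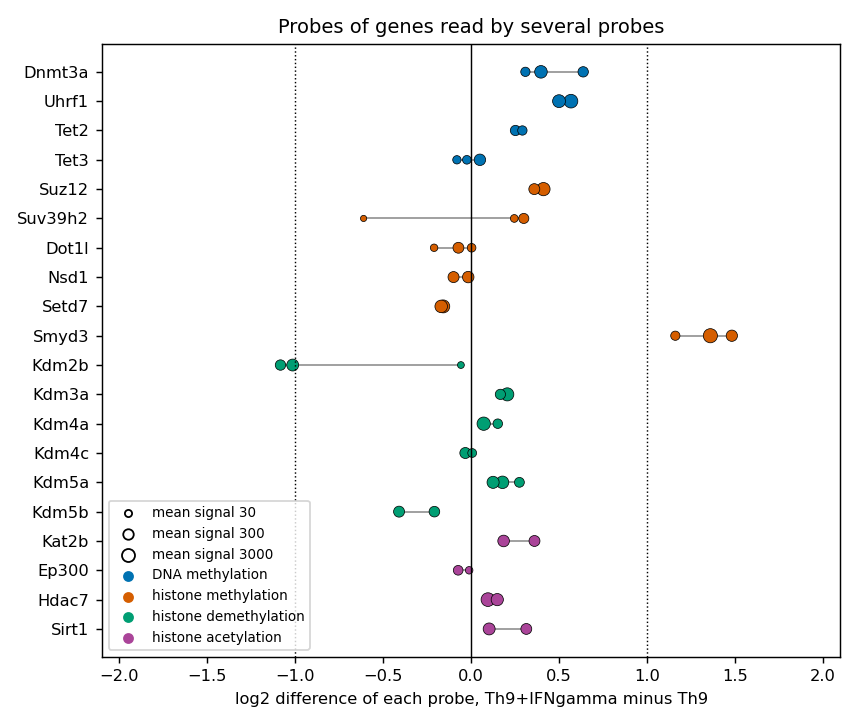
Log2 difference of every probe well above background on both arrays, for the 20 enzymes with several such probes; point area grows with the mean signal, and dotted lines mark 2-fold. The 3 probes of Smyd3 all lie beyond 2-fold, while 1 dim probe of Kdm2b lies near 0 and the other 2 lie beyond 2-fold on the left.

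The 4 histone acetyltransferases lay within 2-fold, with a median of 0.28. Kat2a (GCN5) had signals of 584 and 441 (0.41 ± 0.20), and its relative Kat2b (PCAF) 835 and 735 (0.18 ± 0.20). The second probe of Kat2b gave 0.36 ± 0.20. Crebbp, a broad coactivator, was at 91.3 and 70.0 (0.38 ± 0.22). Its difference was 0.15 with normexp, where an added offset of 50 shrinks the differences of dim probes. Its relative Ep300 was nearest to equal in the acetylation class, at 154 and 162 (-0.07 ± 0.21).

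Hdac4 had the largest difference of all 43 enzymes. It is a class IIa deacetylase, a family of weak enzymes that shuttle between cytoplasm and nucleus and repress MEF2 targets. Its scaled signal was 893 in Th9+IFNgamma and 2803 in Th9, a 3.14-fold lower level (-1.65 ± 0.20), and 3.36% of all genes were at least as far apart in that direction. It was read by 1 probe. Over the 9 alternative settings the difference ranged from -1.68 to -1.51. The settings that choose among probes or filter by signal could not move it, and none could check the single probe. Of its class IIa relatives, Hdac5 was at 3451 and 3779 (-0.13 ± 0.20) and Hdac7, the member known from thymocytes, at 6433 and 6021 (0.10 ± 0.20).

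Hdac11, the sole class IV deacetylase, known as a repressor of Il10 in myeloid cells, was at 20.1 in Th9+IFNgamma and 45.2 in Th9, or 2.25-fold lower (-1.17 ± 0.29). The lowest signals that counted as well above background were 11.1 and 12.5. With normexp the difference was -0.51, within 2-fold. The offset of 50 added in that setting shrinks the differences of dim probes by construction, so this value is no separate check of the gene. Spots of probes printed many times, with a mean signal below 64, had an SD of 0.26 in the log2 difference, against 0.05 for signals of 1000 and above. Of the class I deacetylases, Hdac2 was at 50.5 and 59.9 (-0.25 ± 0.23) and Hdac3 at 2325 and 2083 (0.16 ± 0.20). Sirt1, a NAD-dependent deacetylase, was at 1112 and 1036 (0.10 ± 0.20), and its second probe gave 0.31 ± 0.20.

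The windows before the start of the lower deacetylases, Hdac4 (chr1:92180342-92180591, minus strand, 23 CpG) and Hdac11 (chr6:91156565-91156814, plus strand, 17 CpG), are shown with CpG in capitals, from RefSeq on GRCm38.p6.
Hdac4: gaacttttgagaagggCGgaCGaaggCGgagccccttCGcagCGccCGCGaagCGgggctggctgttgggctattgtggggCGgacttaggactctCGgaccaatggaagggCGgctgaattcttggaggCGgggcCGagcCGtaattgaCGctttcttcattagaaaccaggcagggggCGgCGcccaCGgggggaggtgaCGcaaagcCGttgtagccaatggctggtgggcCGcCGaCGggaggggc
Hdac11: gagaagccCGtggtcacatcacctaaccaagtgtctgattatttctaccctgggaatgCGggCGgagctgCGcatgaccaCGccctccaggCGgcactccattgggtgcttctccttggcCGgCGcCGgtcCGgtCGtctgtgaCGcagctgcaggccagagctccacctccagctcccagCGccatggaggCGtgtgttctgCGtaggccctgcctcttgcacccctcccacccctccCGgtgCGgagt

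Of the 46 genes, 39 had at least 1 window in the promoter table, 57 windows in all; the others were Nsd1, Smyd3, Kdm2a, Kdm5a, Kdm6b, Hdac1 and Hdac3. On either strand, the E2F motif TTTCCCGC matched in 1 of 57 windows, that of Suz12, and in 0.895% of 32851 windows of all genes, and TTTGGCGC in 0 (0.417% of all). The CRE motif TGACGTCA matched in 1 window, that of Suv39h2 (1.55% of all). CpG was frequent in these windows, with a median of 19 per 250 bases against 6 over the windows of all genes, noncoding genes included.

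Further chromatin genes were read for comparison. Of 138 measured genes in 10 other chromatin lists, 0 reached 2-fold upwards (at most 1 over the settings) and 2 were at least 2-fold lower. By a second probe Phc3 was at 1.12, but at 0.01 by its brightest. A positive difference was found for 90 genes, or 65.2% (82 genes in the alternative setting with the fewest), against 49.6% of all genes. The median was 0.15, against -0.01 for all genes. The shares of 0 and 1.45% stand against 5.15% and 7.42% over all genes, which were not matched for signal. The lower genes were Gadd45a, a damage-response gene linked to active demethylation, at 145 in Th9+IFNgamma and 659 in Th9 (4.54-fold lower), and Brwd1, a bromodomain reader, at 590 and 1480 (2.51-fold lower). The 5 probes of Brwd1 ranged from -1.33 to -0.27. Gadd45b went the other way by 1.94-fold (2983 and 1541), and its 2 probes gave log2 differences of 0.95 and 0.64.

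The readers and partners of H3K9 methylation had the highest median of these lists, 0.49 over 9 genes. Of these, 8 (88.9%) were positive, against 49.6% of all genes. The heterochromatin proteins Cbx5 (1321 and 884), Cbx1 (7251 and 5060) and Cbx3 (21163 and 16439) were higher in Th9+IFNgamma, with log2 differences of 0.58, 0.52 and 0.36. Cdyl, which reads repressive lysine marks, was the farthest apart in this list, at 189 against 123 (1.54-fold higher). Polycomb partners had a median of 0.10 over 25 genes, with Mtf2, a PRC2 accessory subunit, 1.60-fold higher (4226 and 2641) and Aebp2, another, 1.86-fold lower (252 and 469). The 2 probes of Aebp2 gave log2 differences of -0.90 and -0.40. Methyl-CpG binding and repair partners had a median of 0.11 over 14 genes. Zbtb38, a reader of methylated DNA, was 1.93-fold lower (153 and 294), and the glycosylases Tdg (1871 and 1236) and Mbd4 (535 and 356) had log2 differences of 0.60 and 0.59.

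Apart from Brwd1, the genes of the remaining lists stayed within 2-fold. The H3K4 and other lysine methyltransferases had a median of -0.03 over 20 genes, and Smyd5, a relative of Smyd3, was the farthest apart, at 224 against 402 (1.80-fold lower). Other demethylases had a median of 0.18 over 14 genes, led by Kdm8 (315 and 196, 1.61-fold higher). Other acetyltransferases had a median of 0.18 over 13 genes, with Kat6b the farthest apart (172 and 266, 1.54-fold lower). Other deacetylases had a median of 0.01 over 9 genes, with Hdac10, a polyamine deacetylase, 1.75-fold lower (1213 and 2123) by both of its probes. Other arginine methyltransferases had a median of -0.13 over 6 genes, with Prmt2 at 4979 and 7635 (1.53-fold lower). Corepressor complexes had a median of 0.14 over 20 genes, with Tbl1x at 510 and 309 (1.65-fold higher). Bromodomain readers had a median of 0.20 over 8 genes, and Brd8 was 1.68-fold higher (1348 and 801).

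**Figure D4:**
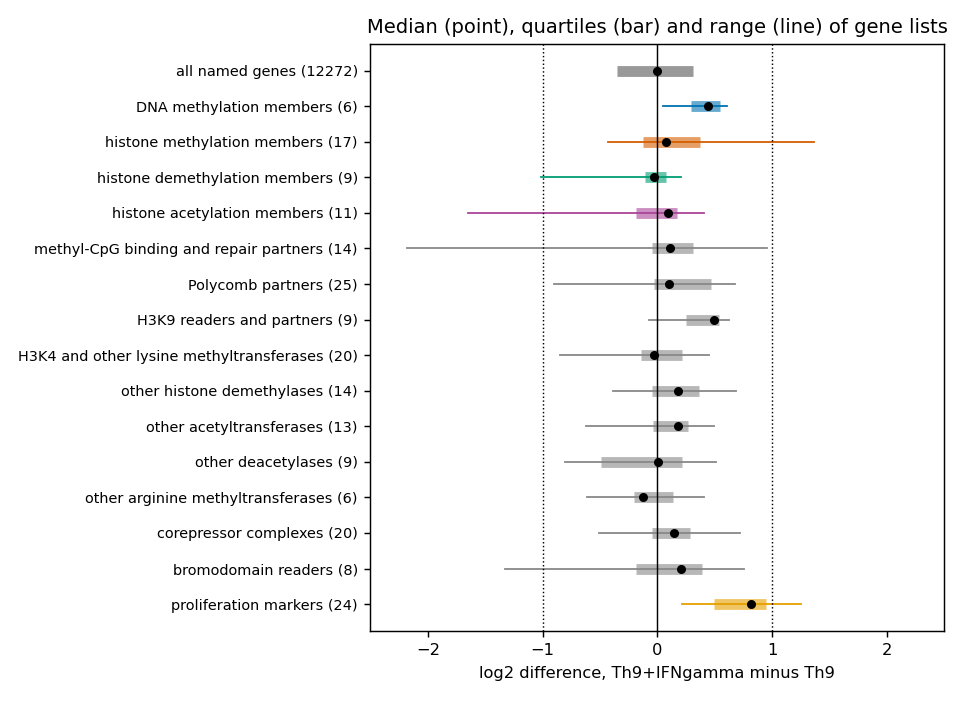
Log2 differences (Th9+IFNgamma minus Th9) of the 4 enzyme classes, of 10 lists of other chromatin genes and of proliferation markers, with the median as a point, the quartiles as a bar and the range as a line; for all named genes the range is not drawn. The number of measured genes is in brackets, and the DNA methylation genes, the H3K9 partners and the proliferation markers have medians of 0.44, 0.49 and 0.82.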

How the data were processed

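Total RNA of 2 cultures was measured on 1 single-colour Agilent array each, from 500 ng of RNA labelled with Cy3. The intensity values were deposited as written by Agilent's Feature Extraction software (version 10.7.3.1 per the file headers and 10.7 per the submitters' processing notes), background-subtracted and detrended within each array but not scaled between arrays. The authors also deposited a table of log2 values, which were log2 of the processed signal minus a constant for each array (SD of that constant over 41174 probes 2.5e-07 and 2.2e-07). It served as an alternative, but it nearly repeats the main scaling and is no independent check. Both gave 632 genes at least 2-fold higher and 910 lower.

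Spots were averaged per probe as log2, control spots and 3 probes flagged as outliers were left out, and the 75th percentile of each array was subtracted (632 and 567 on the linear scale). Accessions were matched to the RefSeq gene table of GRCm38.p6, which named 27050 probes (65.7%); the array headers name another build. Each gene was read by the brightest of its probes well above background on both arrays. Python 3.11.15, R 4.3.3 and limma 3.58.1 (normexp) were used, and the gene table was tested on simulated data. The members and lists were chosen with earlier results of these data known. The text names members by rule and other genes by a 2-fold or largest difference. Named after their values were seen were Gadd45b, Zbtb38, Tdg, Mbd4, Mtf2, Phc3, Cbx1, Cbx3, Cbx5, Brd8, Pcna, Mki67, Top2a, Cd79b, Csf1r and Cd14. The number of arrays limits the precision. The scanner files carry no gene symbols and no mean signal, so naming by symbol was not run, and normexp used the median signal with an offset of 50. Of the promoter motifs searched, only the E2F and CRE motifs are reported here, and of the erythroid markers only Hba-a1 and Alas2.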

Additional observations from a re-analysis of the deposited data

How the results depend on the processing

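No paired analysis was possible because each condition has 1 array. For the same reason no array could be left out. Naming probes by printed gene symbol was not run, since the scanner output used here holds none. With normexp background correction 1 member (Hdac4) was at least 2-fold lower instead of 3. In that setting the counts over all 12272 named genes fell as well, to 437 higher and 582 lower, from 632 and 910. With a 1.5-fold limit 2 members were higher instead of 1. In the other settings run the count of members at least 2-fold lower was 2 or 3, and the count higher was 1. Median scaling moved the median of all genes by 0.11 and raised the positive members from 25 to 32. All named genes then gave 772 higher and 776 lower at 2-fold, against 632 and 910, and the members' median became 0.19 against 0.11 for all genes. The median of the DNA methylation genes ranged from 0.39 to 0.55 over the settings. The medians of the histone methylation genes (-0.03 to 0.19) and histone demethylation genes (-0.06 to 0.08) changed sign, so neither class has a direction. That of the histone acetylation genes, which pool acetyltransferases and deacetylases, ranged from 0.05 to 0.21, the last with median scaling. With 6 of 11 genes positive and 2 at least 2-fold lower, this class had no common direction either. Of 43 members, 32 kept their sign in every setting run, and the other 11 had differences of at most 0.30 in size. Proliferation markers kept a median of 0.76 to 0.93. Signal over background limits Hdac11, Hdac2 and Crebbp, which fell below a scaled signal of 100 on at least 1 array.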
